A study of Canis lupus familiaris with 6 samples.

Results

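Matrix remodelling in a kidney tubule epithelial line was followed through 5 genes: the gelatinase MMP9, the metalloproteinase inhibitors TIMP1 and TIMP2, and the collagen genes COL7A1 and COL1A1. They were taken as listed genes, by the spots whose accession is a dog RefSeq transcript of one of them, which gave 14 of the 43603 probes on the array and 5 of the 1437 genes that received a symbol. The cells were MDCK-II, a dog kidney line, in the derivative named scribKD, which expresses a short hairpin RNA against the polarity scaffold gene scribble in a tetracycline-inducible manner. One arm was cultured without tetracycline and the other with 5 µg/ml, and total RNA was taken at 30, 45 and 60 h. Each of the 6 one-colour arrays held RNA mixed from 3 wells of 1 condition, so that each arm has 3 arrays and each time has 2. Both arms carry the hairpin construct, and tetracycline was given in 1 arm alone, so the hairpin and the drug cannot be told apart. The labels do not say whether the line is a single clone. All differences are with minus without tetracycline on the log2 scale, and levels are log2 of the spot signal minus the array's 75th percentile.

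The extracellular matrix is laid down as collagens and glycoproteins and is trimmed by secreted proteases. MMP9 is a zinc gelatinase released as an inactive precursor; it cuts denatured collagen and the type IV collagen of the basement membrane. The TIMP proteins bind the active site of matrix metalloproteinases and block it; TIMP1 also binds the MMP9 precursor, and TIMP2 takes part in activating the related gelatinase MMP2. COL7A1 encodes the collagen of the anchoring fibrils that tie epithelial basement membranes to the tissue beneath, and COL1A1 encodes the alpha-1 chain of type I collagen, the main fibrillar collagen of connective tissue.

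On the 6 arrays 64.3% to 68.8% of non-control spots were well above background, 0 were saturated, and array profiles correlated at 0.986 to 0.991. Of 15 markers of kidney tubule epithelium fixed for a check of the cell type, 6 had a named probe; CDH1, KRT19, OCLN, TJP1 and CLDN2 were well above background on all 6 arrays and AQP1 on 4. Their summed linear signal, relative to the array's 75th percentile, ranged from 94.0 to 101.03 without and from 79.7 to 88.0 with tetracycline. The brightest probes weigh most in such a sum, and the single markers did not move together. KRT19 and TJP1 were lower with tetracycline at all 3 times, where 21.8% of all features tested were. OCLN and AQP1 were higher at all 3 times, where 27.7% were, and CDH1 and CLDN2 changed sign between times. Of 10 fibroblast and stromal markers 5 had a named probe, and COL1A1, COL1A2, PDGFRB and THY1 were well above background throughout while decorin, DCN, was so on 0 arrays; the summed signal was 3.27 to 3.77 without and 3.60 to 3.74 with tetracycline. The endothelial markers VWF and KDR were well above background on all 6 arrays, with a sum of 23.1 to 24.2 without and 22.0 to 24.7 with tetracycline. Most of that sum came from the VWF probe, whose log2 level was 4.45 to 4.61. Levels of different probes are not compared, so neither are the sums of different lists. For leukocytes, 0 of 7 markers had a named probe. The part of these marker sums in the results below was not tested. The 30 h pair of arrays lay on slide 1 and the 60 h pair on slide 2, while at 45 h the array without tetracycline was on slide 1 and the one with it on slide 2.

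Of the 14 probes, 7 were well above background on all 6 arrays, 1 on 5 arrays, 1 on 1 array and 5 on 0. The first 7 are 2 probes each of MMP9 and TIMP1 and 1 each of TIMP2, COL7A1 and COL1A1, so every gene of the set was measured on every array by at least 1 probe. The brightest probe stands for each gene below, and all 5 genes passed the detection filter through it.

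MMP9 was the gene of the set in which the arms stood furthest apart. Without tetracycline its brightest probe, A_11_P0000019937, had a level of -1.30 at 30 h, -2.28 at 45 h and -1.40 at 60 h. With tetracycline the levels were -2.68, -5.40 and -3.49. Every array with tetracycline lay below every array without it, as was so of 10.4% of the 27581 features tested. The gap between the highest array with and the lowest array without tetracycline was 0.40, so the lowest untreated level, at 45 h, lay close to the highest treated one, at 30 h. In bulk RNA, fewer cells making MMP9 and less MMP9 RNA per cell cannot be told apart.

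**Figure D1:**
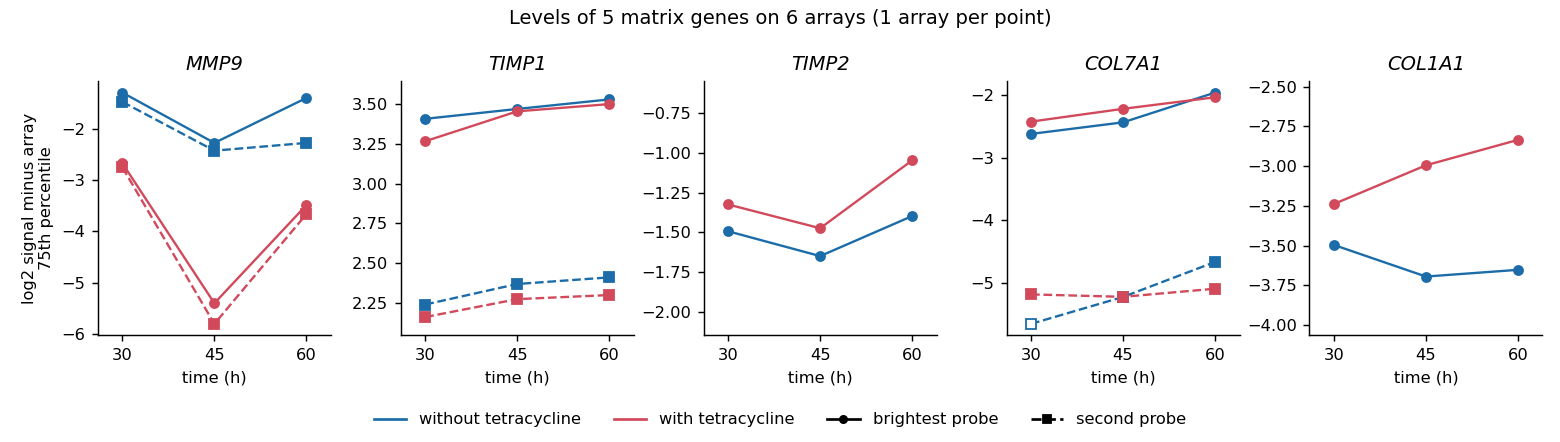
Levels of MMP9, TIMP1, TIMP2, COL7A1 and COL1A1 (y axis, log2 signal minus the array's 75th percentile, with a separate range in each panel) against time in hours, without (blue) and with (red) tetracycline; each point is 1 array, circles are a gene's brightest probe, squares its second probe where that was well above background on at least 5 arrays, and an open symbol is a spot not well above background. MMP9 with tetracycline lay below the untreated arm at each time and was lowest at 45 h, at -5.40, while the arms of COL1A1 parted from 30 to 60 h.

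As spot signal, the MMP9 probe went from 259 without to 99.2 with tetracycline at 30 h, from 127 to 14.6 at 45 h and from 222 to 51.6 at 60 h. These are 2.60-, 8.72- and 4.25-fold lower values. The mean difference was -2.20 ± 0.35 (limma's moderated SE, 3 pairs of arrays), a value that 0.0508% of the features tested undercut. With limma's moderated test the adjusted p was 0.114 over all features (unadjusted p = 0.00239). The error in that test starts from the spread of the difference over the 3 times. It is then pulled toward a value common to all features (prior SD 0.107, with 2.37 prior against 2 residual degrees of freedom). MMP9 spread more widely than that prior, so its SE was made smaller. Other ± values from limma below are moderated likewise. MMP9 was the 1 gene of 5 at least 2-fold lower at every time. At single times, 1.71% of features were 2-fold lower at 30 h, 3.05% at 45 h and 4.6% at 60 h. These shares are over features well above background on at least 1 array of the pair. No share of features 2-fold lower at every time is given, so the count of 1 of 5 has no like share beside it.

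The 45 h value with tetracycline was near the limit of measurement. It lay 0.48 above the lowest signal that counted as well above background on that array, whereas the 5 other arrays stood 2.16 to 5.38 above theirs. With normexp background correction, which compresses values close to background, the differences were -1.07 at 30 h, -1.36 at 45 h and -1.32 at 60 h, so that the 45 h pair no longer stood out. In that form MMP9 passed the threshold, at -1.25 ± 0.08 with an adjusted p of 0.0361 (limma), where 134 of 27581 features passed. Without the 45 h pair the mean difference was -1.73, and with a gene's probes averaged, 2 of which were dim, it was -1.06.

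The second MMP9 probe measured well above background followed the first. Its levels were -1.48, -2.43 and -2.28 without tetracycline and -2.76, -5.81 and -3.67 with it, at 30, 45 and 60 h. Differences were therefore -1.28, -3.38 and -1.39, and again the arms did not overlap. At 45 h with tetracycline the second probe lay 0.08 above the lowest signal that counted as well above background on that array. It was thus nearer to the limit of measurement there than the first probe, and both probes share that low array. Both probes correlated at r = 0.98 over the 6 arrays, given as a description since the arrays share arm and time. They differed at 60 h without tetracycline, where the first probe returned to near its 30 h level and the second stayed 0.80 below its own. As a feature of its own the second probe had a mean difference of -2.01 ± 0.47 (limma, adjusted p = 0.139). The remaining 2 probes carry no measurement of a difference: one was well above background on 1 array and the other on 0.

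The course of MMP9 over time had the same shape in both arms. From 30 to 45 h the level changed by -0.98 without and by -2.73 with tetracycline, and from 45 to 60 h by 0.88 and 1.91. Both arms were thus lowest at 45 h, the time whose arrays lie on different slides. The contrast of 60 h with 30 h over both arms was -0.46 ± 0.43 (limma, adjusted p = 0.509). It turned to 0.93 ± 0.44 with a slide term added. That term can be estimated from the 45 h pair alone, where slide and arm cannot be told apart. It therefore takes up the difference between the arms at 45 h, with its value near the limit of measurement, and is no separate measure of slide. The slope of the difference between the arms was -0.36 ± 0.42 per 15 h (limma, adjusted p = 0.690), the difference being widest at 45 h and not at the last time.

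TIMP1, the inhibitor that pairs with MMP9, was nearly level across all 6 arrays. Its brightest probe stood at 3.41, 3.47 and 3.53 without tetracycline and at 3.27, 3.45 and 3.50 with it. The whole range over arrays was 0.26, and the arms overlapped. The differences were -0.14, -0.01 and -0.03 with a mean of -0.06 ± 0.07 (limma, adjusted p = 0.634). The sign at 45 h turned to 0.01 under quantile scaling and that at 60 h to 0.03 under median scaling, so no direction holds at those times. The second probe, at 2.24, 2.37 and 2.41 without and 2.16, 2.27 and 2.30 with tetracycline, gave -0.08, -0.10 and -0.11. From 30 to 60 h TIMP1 went up by 0.12 without and 0.23 with tetracycline, a contrast of 0.18 ± 0.09 (limma, adjusted p = 0.238).

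TIMP2, measured by 1 probe, stood slightly higher with tetracycline at each time. Levels were -1.49, -1.65 and -1.40 without and -1.33, -1.47 and -1.05 with it. The arms overlapped, because the untreated level at 60 h exceeded the treated one at 45 h. The differences were 0.17, 0.18 and 0.35, or 1.12-, 1.13- and 1.27-fold, with a mean of 0.23 ± 0.08 (limma, adjusted p = 0.188; unadjusted p = 0.0340). Of all features tested, 84.9% had a lower mean difference. With normexp correction the mean was 0.13.

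Since MMP9 and its inhibitors share each array, the change of one can be set against the change of the other. The MMP9 difference minus the TIMP1 difference was -1.24 at 30 h, -3.11 at 45 h and -2.06 at 60 h, with a mean of -2.14 ± 0.94 (SD, n = 3 pairs). Against TIMP2 the values were -1.55, -3.30 and -2.44. Both kept 1 sign in 3 of 3 pairs, which gives p = 0.25 in an exact two-sided sign permutation test, the smallest p that 3 pairs allow (adjusted p = 0.25 over 4 such gene pairs, chosen with the values known). These are unequal changes, and levels of different probes are not compared.

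**Figure D2:**
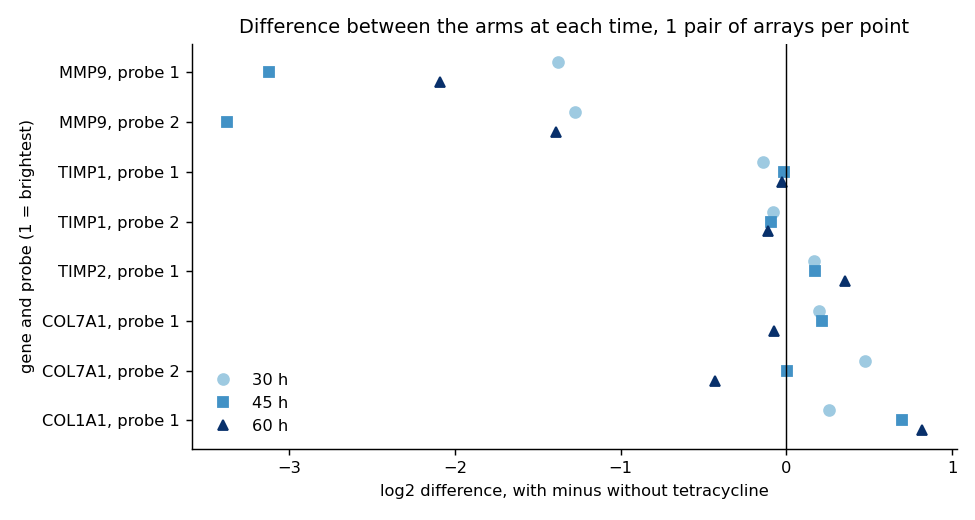
Log2 difference with minus without tetracycline (x axis) for each probe of the 5 genes that was well above background on at least 5 arrays (y axis), with 1 pair of arrays per point at 30 h (circles), 45 h (squares) and 60 h (triangles). Both MMP9 probes lie between -3.38 and -1.28, both TIMP1 probes lie close to 0, and the COL1A1 probe goes from 0.26 at 30 h to 0.82 at 60 h.

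COL1A1 was the gene of the set with the largest difference in the other direction. Its measured probe, A_11_P147113, stood at -3.50, -3.70 and -3.65 without tetracycline and at -3.24, -3.00 and -2.84 with it. Every array with tetracycline lay above every array without it, which was so of 11.7% of all features, and the gap between the arms was 0.26. In signal the probe went from 56.5 to 67.2 at 30 h, from 47.5 to 77.6 at 45 h and from 46.8 to 81.3 at 60 h, which are 1.20-, 1.62- and 1.76-fold higher values. The mean difference was 0.59 ± 0.13 (limma, adjusted p = 0.134; unadjusted p = 0.00891). It was 0.32 with normexp correction and 0.38 with all 4 probes averaged, both with an adjusted p above 0.05. The 3 further COL1A1 probes were well above background on 0 arrays and give no measurement. The fibroblast marker sums given above overlapped between the arms, with COL1A1 itself among those markers, and DCN was not well above background on any array.

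Against 30 h, the 2 arms of COL1A1 lay in opposite directions at both later times. From 45 to 60 h both went up, by 0.04 without and 0.16 with tetracycline. Without tetracycline the level was 0.20 lower at 45 h and 0.16 lower at 60 h than at 30 h, and with tetracycline it was 0.24 and 0.40 higher. Such opposite courses, down without and up with tetracycline, were found for 8.62% of all features. The slope of the difference was 0.28 ± 0.08 per 15 h (limma, adjusted p = 0.227; unadjusted p = 0.0317), in a fit with 1 residual degree of freedom. With the 4 probes averaged the slope was 0.05, but 3 of these were well above background on 0 arrays. COL1A1 was the 1 gene of 5 with an unadjusted p under 0.05 for the slope, where 19% of all features were.

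COL1A2, which encodes the partner chain of type I collagen, did not show this course. Its brightest probe stood at 0.99, 1.22 and 1.22 without and 1.20, 1.16 and 1.10 with tetracycline, a mean difference of 0.01 ± 0.09 (limma, adjusted p = 0.946). Over its 5 probes well above background on all arrays the mean differences ran from -0.15 to 0.01. The COL1A1 difference minus that of COL1A2 was 0.04 at 30 h, 0.76 at 45 h and 0.93 at 60 h (mean 0.58 ± 0.47, SD, n = 3 pairs; exact sign permutation p = 0.25, the smallest that 3 pairs allow). The COL1A1 difference minus that of COL7A1 was 0.06, 0.48 and 0.89.

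For COL7A1 the larger contrast was that of time in culture, not that of the arms. The brightest probe stood at -2.62, -2.43 and -1.96 without tetracycline and at -2.42, -2.22 and -2.03 with it. The arms overlapped, and the difference was 0.20 at 30 h, 0.22 at 45 h and -0.07 at 60 h, with a mean of 0.11 ± 0.09 (limma, adjusted p = 0.495) and of 0.06 to 0.21 with 1 pair of arrays left out. In both arms each later time was higher than the one before, 1.58-fold from 30 to 60 h without and 1.31-fold with tetracycline. The contrast of 60 h with 30 h was 0.53 ± 0.11 (2 arrays per time), with an adjusted p of 0.0613 (limma) and an unadjusted p of 0.00723. It passed with a trended and robust prior (limma, adjusted p = 0.0478), where 3775 of 27581 features did. Time and slide lie together in this contrast, and with a slide term added it was 0.37 ± 0.28 with an adjusted p of 0.935. The slide term rests on the 45 h pair alone, where slide and arm cannot be told apart. With the 3 probes averaged, 1 of which was well above background on 0 arrays, the contrast was 0.32 (limma, adjusted p = 0.115).

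The second COL7A1 probe, close to background, gave a different split by arm. It stood at -5.66, -5.23 and -4.67 without tetracycline, where the first value was not well above background, and at -5.19, -5.23 and -5.10 with it. The level thus went up by 0.99 from 30 to 60 h without tetracycline but by 0.09 with it. Its difference between the arms was at least 1.39-fold higher at 30 h, 0.00 at 45 h and -0.43 at 60 h, a slope of -0.45 (limma, adjusted p = 0.121) against -0.14 ± 0.08 for the first probe (adjusted p = 0.446). The third probe was well above background on 0 arrays.

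Across the set, 0 of 5 genes passed an adjusted p of 0.05 (limma) for the arms, where 0% of all 27581 features did. At an unadjusted p under 0.05 stood 3 of 5, namely MMP9, TIMP2 and COL1A1, against 23.3% of all features. MMP9 and TIMP1 were lower and TIMP2 and COL1A1 higher at all 3 times, where 21.8% and 27.7% of features were lower and higher, although the sign of TIMP1 turned at 45 h under quantile and at 60 h under median scaling. The median difference of the 5 genes was 0.11, against 0.01 over all features, and the median size 0.23 against 0.14. For the contrast of 60 h with 30 h, 0 of 5 passed where 8.17% of features did, and 1 of 5, COL7A1, had an unadjusted p under 0.05 where 31.4% did. The genes were chosen with earlier results of these data known, so these counts describe the set and show nothing particular to it.

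**Figure D3:**
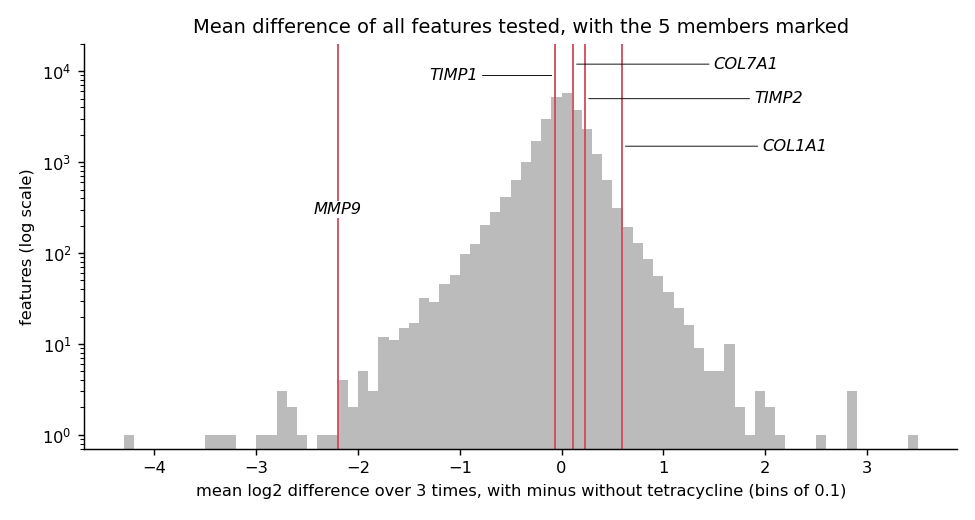
Number of features (y axis, log scale) by mean log2 difference over the 3 times, with minus without tetracycline (x axis, bins of 0.1), for all 27581 features tested; red lines mark the 5 genes. MMP9, at -2.20, lies in the lower tail, COL1A1, at 0.59, lies above 97.8% of features, and TIMP1, COL7A1 and TIMP2 lie in the body of the distribution.

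For the matrix genes around the set, 11 lists of 290 genes were fixed by function. Of these 66 had a named probe and 45 were tested, 40 of them outside the set. For the arms 0 of 45 passed an adjusted p of 0.05 (limma); at an unadjusted p under 0.05, 7 were higher and 4 lower, where 12.2% and 11.1% of all features were. The median difference of the 45 was 0.02.

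Among proteases, MMP9 was the 1 matrix metalloproteinase that could be tested. MMP3, MMP7, MMP11 and MMP12 had named probes that did not pass the detection filter. The sheddases ADAM9 and ADAM17 had mean differences of -0.01 and 0.07, and ADAMTS13, the protease of von Willebrand factor, -0.37 ± 0.24. Of 5 cathepsins, lysosomal proteases that can also be secreted, 4 were lower at all 3 times, where 21.8% of all features were. With an unadjusted p under 0.05 (limma) 3 were lower, where 11.1% of all features were. Whether the list departs from these shares was not tested. CTSS stood at -0.07, -0.64 and -1.04 for 30, 45 and 60 h, CTSD at -0.06, -0.43 and -0.46, CTSA at -0.06, -0.28 and -0.32 and CTSC at -0.15, -0.26 and -0.20, with adjusted p from 0.189 to 0.220 (limma); the list's median was -0.22. The list for the plasmin system and serine proteases, which also holds tissue factor, F3, had 4 tested genes. Of these 4, 2 (F3 and ELANE) were higher at all 3 times, where 27.7% of all features were. ELANE was so by 0.06, 0.05 and 0.01 only. F3 alone had an unadjusted p under 0.05 (limma), where 12.2% of all features were higher at that threshold. The urokinase gene PLAU, whose product activates plasminogen, stood at -0.14, 0.68 and 2.63 and the coagulation starter F3, tissue factor, at 0.32, 1.10 and 1.56 (adjusted p = 0.326 and 0.150), while KLK1 and ELANE had means of 0.03 and 0.04.

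Of 9 protease inhibitors tested, 3 had an unadjusted p under 0.05 (limma) and all 3 were higher, TIMP2 and TIMP3 among them. Of all features 12.2% were higher at that threshold. TIMP3, the matrix-bound member of the TIMP family, stood at -1.78, -2.09 and -2.45 without and at -1.49, -1.29 and -1.59 with tetracycline. Its differences were 0.29, 0.80 and 0.86 (mean 0.65 ± 0.14; limma, adjusted p = 0.131), which made TIMP3 the TIMP gene with the largest mean difference; its difference from the other TIMP genes was not tested. The elastase inhibitor PI3 had differences of -0.08, 0.25 and 0.88 and SERPINF1 0.25, -0.13 and 0.80. The list's median was 0.23, that of TIMP2 itself.

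Of the structural genes, COL9A2, a chain of the cartilage collagen type IX, had differences of 0.66, 0.51 and 1.38 (mean 0.85 ± 0.19; limma, adjusted p = 0.136). With COL1A1 it made 2 of 4 collagens higher at an unadjusted p under 0.05 (limma), where 12.2% of all features were. COL6A3, at a mean of -0.43 ± 0.33, changed sign between times. Tenascin C, TNC, had a mean of 0.39 ± 0.15, the proteoglycan biglycan, BGN, of -0.38 ± 0.17 and aggrecan, ACAN, of -0.03. Of the genes that process collagen, the lysyl hydroxylase PLOD1 had 0.17 ± 0.10 and the collagen chaperone SERPINH1 -0.18 ± 0.08. None of these structural or processing genes passed an adjusted p of 0.05 with limma.

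Matrix receptors had 0 of 5 genes at an unadjusted p under 0.05 (limma), where 23.3% of all features were in either direction. CD44, the hyaluronan receptor, stood at 0.04, 0.46 and 1.27, and ITGA2B, DAG1 and RPSA had means of 0.09, -0.08 and -0.07. Among 7 tested regulators and partners of MMP9, 1 had an unadjusted p under 0.05, against the same 23.3% of all features. It was NFKB1, a subunit of the NF-kappaB transcription factors, with differences of 0.09, 0.27 and 0.44 (limma, adjusted p = 0.200). The kinases MAPK14 and MAPK3 had means of 0.15 and -0.11. The median of this list was 0.05.

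**Figure D4:**
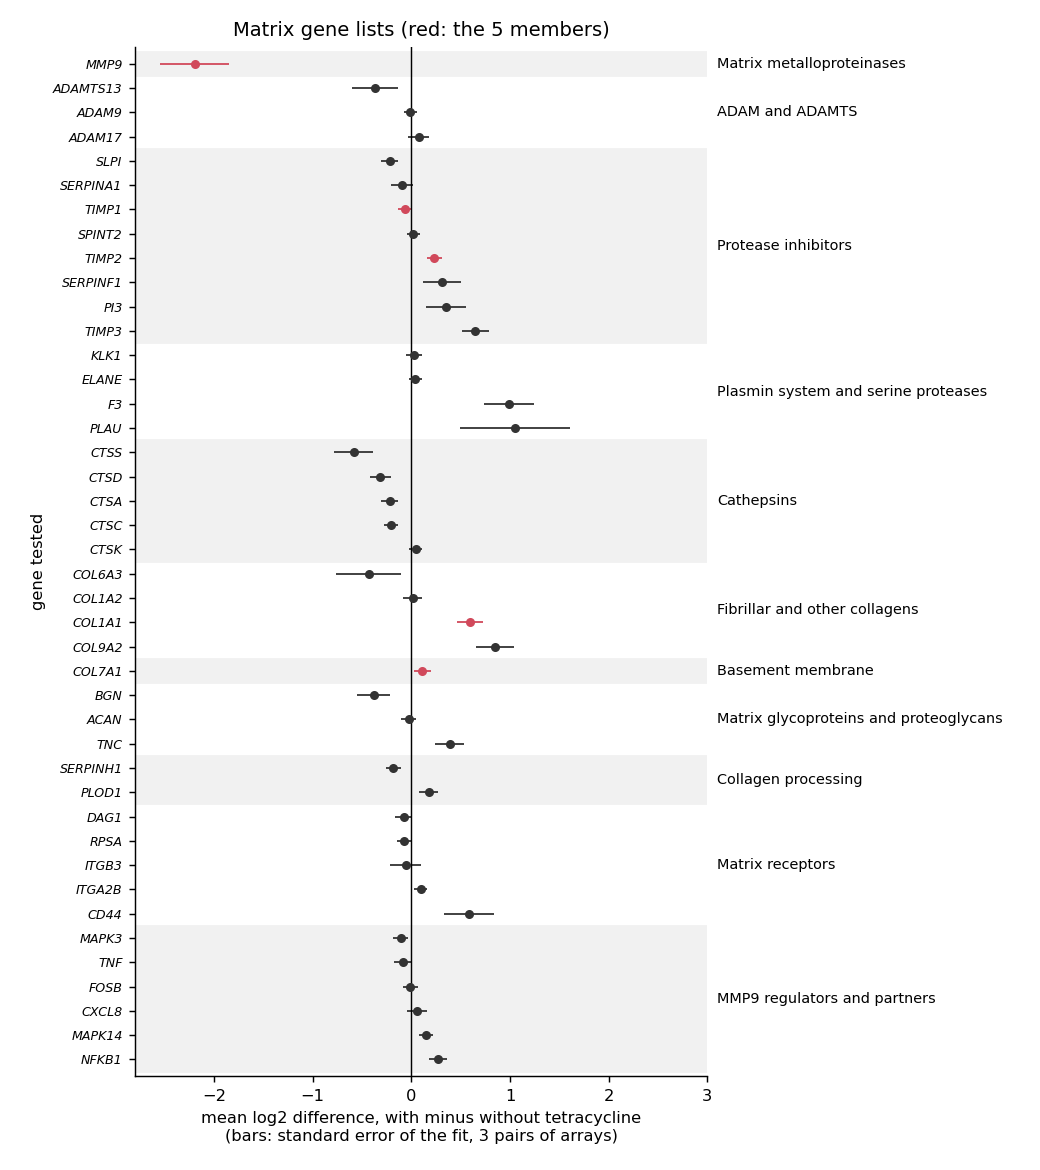
Mean log2 difference with minus without tetracycline (x axis; bars are the standard error of the limma fit over 3 pairs of arrays) for the tested genes of the 11 lists that are reported here (y axis, grouped and shaded by list), with the 5 genes of the set in red. MMP9, at -2.20, is the lowest value shown, and 4 of the 5 cathepsins lie below 0.

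Genes whose levels ran most like each member were sought among 363 or 364 named genes with a range of at least 0.58. The measure was Pearson's r over the 6 arrays, which share arm, time and slide, so it is a description. MMP9 ran most like CTSD (r = 0.95), the cyclin gene CCNB3 (0.94) and PTGES2 (0.91), none of which differed as widely between the arms: their mean differences were -0.31, -0.57 and -0.55. Each of these, like MMP9, was lowest on the 45 h array with tetracycline, where MMP9 was near the limit of measurement. How far r rests on that array was not tested. COL1A1 ran most like the apoptosis inhibitor BIRC3 (0.98) and the small GTPase RAB2A (0.97), with mean differences of 0.82 and 0.58. TIMP2 ran most like the DNA repair gene MGMT (0.87), RETREG1 (0.85) and COL9A2 (0.85). The genes closest to COL7A1 were MYOZ1, CCS and FHIT, each at 0.98, and those closest to TIMP1 were the retinoic acid receptor RARA, the chemokine CCL5 and ATP4A, each at 0.95.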

How the data were processed

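The deposited scanner files hold linear spot intensity from Agilent Feature Extraction 11.5.1.1, per the file headers and the submitters' processing notes; the processed signal was background-subtracted and spatially detrended, with no scaling between arrays. In the deposited series matrix the intensity is that signal times 1 factor per array (2.30 to 2.62). Outlier spots were left out, spots of a probe averaged, and log2 values set against the array's 75th percentile; per the file headers the flag for well above background came from the same program. Probes were named by accession in a RefSeq table of another assembly, so no coordinates are given. Features well above background on all 3 arrays of an arm were tested with limma 3.58.1 in R 4.3.3, two-sided, with Benjamini-Hochberg adjustment: arm with time as block (2 residual degrees of freedom), arm by linear time, and 60 h against 30 h. With 1 array per condition, p-values rest on the spread over times or arms, moderated toward a value common to all features. They do not measure the spread between cultures, and the number of arrays limits precision. The tests were checked on simulated data. Members and lists were chosen with earlier results of these data known. Genes named are the 5 members, up to 4 genes per list with the largest mean difference and the 3 genes most like each member, less a few that are not reported here; MMP3, MMP7, MMP11, MMP12, COL1A2 by probe and the pairs of genes were chosen after their values were seen. Alternatives were other scalings, the series matrix, normexp (offset 50), other filters, priors, probe rules and time or slide terms, and leaving out pairs of arrays.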

Additional observations from a re-analysis of the deposited data

Results flagged for a closer look

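COL1A1 drew attention because its level moved one way without tetracycline and the other way with it, at both later times against 30 h. The slope of the difference between the arms was 0.28 per 15 h. The test of that slope did not pass (limma, adjusted p = 0.227), and the opposite courses at single times were not tested. Falling without and rising with tetracycline in this way was found for 8.62% of the features tested.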

How the results depend on the processing

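No member changed the direction of its mean difference between the arms under the 14 alternatives. Not all of these test the direction. The detection filters, the prior, the time term and every probe as a feature left each member's estimate unchanged. The series matrix differs by 1 factor per array, and the slide term gave the same estimates as leaving out the 45 h pair. MMP9 ranged from -2.61 to -1.06 (adjusted p 0.0361 to 0.601) and passed under normexp alone (-1.25); COL1A1 ranged from 0.32 to 0.76 (0.0598 to 0.601). For time in culture, COL7A1 passed with a trended and robust prior (0.53), and with the slide as a term MMP9 (0.93) and COL1A1 (-0.039) changed sign. The slide term rests on the 45 h pair alone, where slide and arm cannot be told apart. Features past the threshold for the arms numbered 0; the count was 134 with normexp, 16 with the trended prior, 17 without a time term and 0 to 1 with a pair of arrays left out. For the slope, 0 became 240 with median scaling, 1604 with normexp, 1796 with the trended prior, 2 with detection on all 6 arrays and 3 at an adjusted p of 0.10. For time, 2254 became 4121 with normexp, 3775 with the trended prior, 5893 at 0.10, and 0 without a detection filter, with a slide term or without the 45 h pair. Features 2-fold apart at 30, 45 and 60 h were 1021, 1499 and 2273; with both arrays above background 217, 558 and 1221, and with normexp 107, 215 and 596. Treating every probe as a feature was chosen after seeing the data and changed no call. The cause of these shifts was not tested. Signals near background limit MMP9 at 45 h and the second COL7A1 probe. The labels give no replicate numbers, and arrays were paired by time alone.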
